A study of Mus musculus with 8 samples.

Results

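Uterine gland genes were followed in whole mouse uterus just before embryos attach. The set holds 8 genes of 19938 with a probe set of their own on the array: the proteases Prss28 and Prss29, the inhibitor-type secreted proteins Wfdc3 and Spink1, the secreted proteins Prap1 and Ttr, and the transcription factors Foxa2 and Sox9. Each was found by its symbol in the platform's gene table, and the probe set with the highest mean over the 8 arrays stood for the gene. The pregnant group held 4 uteri of young virgin C57BL/6 females mated with stud males, and the pseudopregnant group held 4 uteri of females of the same strain mated with vasectomized males. All uteri were taken on day 3 at 22 h, with the night of mating as day 0. Pregnant uteri were used where injected blue dye marked no attachment site and healthy blastocysts could be flushed out. The groups thus differ in the males and in this choice of uteri, as well as in whether the uteri had held embryos. The samples are labelled as biological replicates, and each array carried the RNA of whole uterus, not of isolated glands.

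Uterine glands are tubes of epithelium that open into the uterine cavity and secrete proteins, enzymes and cytokines into it. In mice they form after birth under the control of Foxa2 and of Wnt signals, and without them, or without the cytokine Lif that they secrete, embryos do not implant. Prss28 and Prss29 encode the implantation serine proteinases, trypsin-like enzymes made by the glands under progesterone and linked to dissolution of the zona pellucida around the blastocyst.

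The genes of the 2 proteases lie side by side on chromosome 17, and the bases in front of their starts are shown because both genes took almost the same course over the arrays. The sequences are the 250 bases before each start on the plus strand of GRCm38.p6, from RefSeq, at chr17:25308396-25308645 for Prss28 and chr17:25318404-25318653 for Prss29. Capitals mark the runs shared by both, and in Prss28 also a forkhead and a receptor half-site match.
Prss28: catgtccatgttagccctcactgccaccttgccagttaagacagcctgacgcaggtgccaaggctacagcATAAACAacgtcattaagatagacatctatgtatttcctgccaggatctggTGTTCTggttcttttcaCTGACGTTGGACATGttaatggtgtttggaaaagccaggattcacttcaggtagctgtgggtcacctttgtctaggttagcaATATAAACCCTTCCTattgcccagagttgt
Prss29: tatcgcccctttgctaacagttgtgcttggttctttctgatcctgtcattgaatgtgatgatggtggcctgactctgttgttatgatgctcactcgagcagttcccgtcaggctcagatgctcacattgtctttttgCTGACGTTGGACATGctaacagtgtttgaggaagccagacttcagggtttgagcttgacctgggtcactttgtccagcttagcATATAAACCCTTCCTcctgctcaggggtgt

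In a global alignment the Prss28 and Prss29 windows were identical at 162 of 259 columns, or 62.5%. Their longest shared runs, CTGACGTTGGACATG and ATATAAACCCTTCCT, were both 15 bases long, and each stood in 2 of the 32851 windows of the table, those of Prss28 and Prss29. They were picked because both windows share them, and they were searched only on the listed strand of each window. The run with TATAAA began 30 bases before the start in both genes, and TATAAA itself, searched on both strands, stood in 12.4% of all windows. The other run began 112 bases before the start of Prss28 and 113 before that of Prss29. Foxa2 is a forkhead factor, so 3 forkhead motifs were searched on both strands: TGTTTAC and then TGTTTAT and then TATTTAC. The matches overlapped no other motif found. Prss28 held TGTTTAT once, on the minus strand 180 bases before the start, a match found in 4.16% of windows, and any of the 3 stood in 9.45%. Prss28 also held AGAACA, a half-site of the progesterone and glucocorticoid receptors, on the minus strand 129 bases before the start, against 16.1% of all windows. Prss29 held none of these letters, and the palindromic estrogen response element stood in neither window and in 0.0639% of all. Windows were listed for 5 of the 8 genes, and the forkhead letters and AGAACA were found in none of the windows of Wfdc3, Foxa2 and Prap1.

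Intensities are given as log2 of the deposited values, and differences are pregnant minus pseudopregnant. Each array was given an intensity limit at its 40th percentile, between 5.23 and 5.32, and a probe set was tested if 4 or more of its 8 values exceeded the limit. A gene is said to have risen or fallen where limma gave an adjusted p under 0.05, which 1.82% of the 17491 tested probe sets did (1.41% higher and 0.412% lower). Of the 8 gland genes, 7 were tested and 1, Wfdc3, passed, in the lower direction, while an unadjusted p under 0.05 was reached by 2 in the higher direction (14.3% of all tested probe sets) and 1 in the lower (9.43%). Of the markers on the array, 8 of 8 for smooth muscle, 8 of 8 for stroma and 13 of 13 for epithelium exceeded the limit often enough to be tested. Of 9 blastocyst markers, 7 lay at or below the limit on every array, as did 3 of the 4 oviduct markers on the array. Pregnant replicate 2 stood apart from the other arrays in most results that follow. Differences of named genes that moved by over 1.5 times without it are also given without it. The second Wfdc3 probe set, the list medians and the gap between the proteinases are given over all 8 arrays only.

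The implantation proteinases had the largest average differences of the set. Prss28, the first of the pair, had log2 intensities of 6.08, 9.85, 7.42 and 7.09 in pregnant replicates 1 to 4, against 5.96, 5.15, 6.21 and 5.99 in pseudopregnant replicates 1 to 4. On 3 of the pregnant arrays it lay above every pseudopregnant array, and pregnant replicate 1 lay within the pseudopregnant range. The linear intensity was 926 on pregnant replicate 2 and 67.7 on pregnant replicate 1, and between 35.5 and 73.8 on the pseudopregnant arrays. The mean was 7.61 ± 1.6 in pregnant and 5.82 ± 0.46 in pseudopregnant uteri (SD, n = 4 each), a difference of 1.78 ± 0.65 (SE) or 3.45-fold. It did not pass (limma adjusted p = 0.14, and exact permutation p = 0.057, where the 70 arrangements of the arrays allow 0.029 at the least). Without pregnant replicate 2 the difference was 1.04. In RNA of whole uterus, a different number of gland cells and a different amount of RNA per gland cell cannot be told apart.

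Prss29, the second proteinase, had 6.32, 9.92, 8.03 and 7.62 in pregnant replicates 1 to 4, against 6.23, 5.29, 6.71 and 6.70 in pseudopregnant replicates 1 to 4. The same 3 pregnant arrays lay above the pseudopregnant range, and pregnant replicate 1 lay inside it. The difference was 1.74 ± 0.63 (SE) or 3.34-fold, with means of 7.97 ± 1.5 in pregnant and 6.23 ± 0.67 in pseudopregnant uteri (SD, n = 4 each). It did not pass (limma adjusted p = 0.14, exact permutation p = 0.086), and without pregnant replicate 2 it was 1.09.

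The proteinases were ordered almost alike over the 8 arrays. Both were highest on pregnant replicates 2, 3 and 4, followed by pseudopregnant replicate 3, and both were lowest on pseudopregnant replicate 2. Pregnant replicate 1 had rank 5 for Prss28 and rank 6 for Prss29, and its exchange with pseudopregnant replicate 4 was the only difference in order. Pearson's r between them was 0.99 over the 8 arrays and 0.98 without pregnant replicate 2, and 0.98 for the deviations from the group means, all on shared arrays. Within an array, log2 Prss29 exceeded log2 Prss28 by 0.36 ± 0.26 in pregnant and 0.41 ± 0.25 in pseudopregnant uteri (SD, n = 4 each), and this gap differed by -0.04 between groups (exact permutation p = 0.77). The 2 genes are related in sequence, and cross-hybridisation between their probes was not tested.

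**Figure D1:**
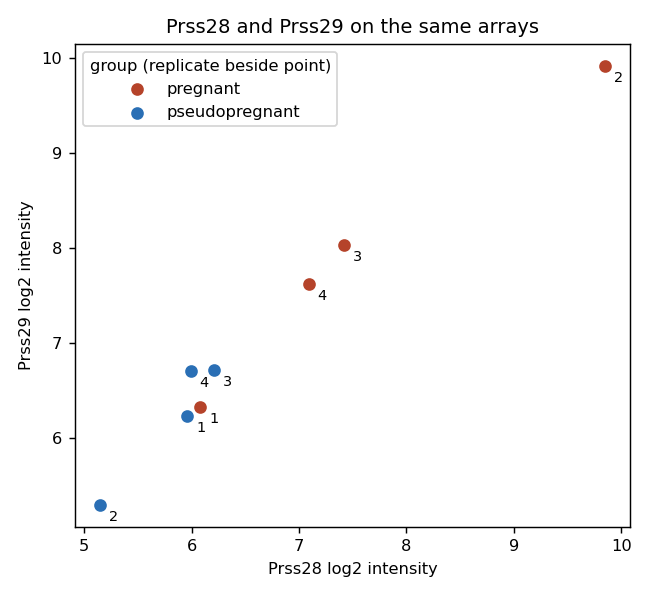
Log2 intensity of Prss28 (x axis) and Prss29 (y axis) on the 4 pregnant and 4 pseudopregnant arrays, each point an array with its replicate number. Pregnant replicate 2 lies at 9.85 and 9.92, and pregnant replicate 1, at 6.08 and 6.32, lies among the pseudopregnant points.

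Of the proteins of inhibitor families, Wfdc3 had a lower and Spink1 a higher mean in pregnant uteri. Wfdc3 belongs to the whey acidic protein family, which includes inhibitors of proteases, and it was the member that fell. Its probe set had 5.70, 5.60, 5.60 and 5.60 in pregnant replicates 1 to 4, against 5.92, 5.87, 5.81 and 5.85 in pseudopregnant replicates 1 to 4. All pregnant arrays lay below all pseudopregnant arrays, as they did for 5.39% of the tested probe sets. The difference was -0.24 ± 0.051 (SE), with 5.62 ± 0.048 in pregnant and 5.86 ± 0.048 in pseudopregnant uteri (SD, n = 4 each; limma adjusted p = 0.049, exact permutation p = 0.029). The call ended without any single array (adjusted p between 0.065 and 0.12), with the replicate number as a block (0.073), without the intensity filter (0.095) and with the mean of both probe sets (0.069). A second Wfdc3 probe set had 5.70, 4.94, 5.60 and 5.75 in pregnant replicates 1 to 4, against 6.04, 6.03, 5.88 and 5.88 in pseudopregnant replicates 1 to 4. It showed the same order of groups, with a difference of -0.46 ± 0.16 (SE, limma adjusted p = 0.12). Both probe sets lay near the limit, between the 34.6th and the 54.4th percentile of their arrays.

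Spink1, a Kazal-type inhibitor of trypsin, lay between the 87.3th and the 97.4th percentile of its arrays. It had 8.04, 9.90, 8.66 and 8.57 in pregnant replicates 1 to 4, against 8.04, 8.12, 8.85 and 8.69 in pseudopregnant replicates 1 to 4. The groups overlapped, and only pregnant replicate 2 lay above the pseudopregnant range. The difference was 0.37 ± 0.35 (SE, limma adjusted p = 0.54, exact permutation p = 0.63), and without pregnant replicate 2 it was 0.00.

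Prap1 encodes a proline-rich acidic protein that the uterine epithelium secretes in pregnancy. It had 5.19, 7.99, 5.83 and 5.23 in pregnant replicates 1 to 4, against 5.16, 5.06, 4.50 and 5.13 in pseudopregnant replicates 1 to 4. The groups did not overlap, as in 9.23% of tested probe sets in the higher direction, but pregnant replicate 1 lay close above pseudopregnant replicate 1. Prap1 lay above the limit on 2 arrays, pregnant replicates 2 and 3, so it was not among the probe sets tested across the array. Its means were 6.06 ± 1.3 in pregnant and 4.96 ± 0.31 in pseudopregnant uteri (SD, n = 4 each), a difference of 1.10 (exact permutation p = 0.029). Without pregnant replicate 2 the difference was 0.46, and its size is not exact because every pseudopregnant value lay below the limit. When no limit was set, limma gave Prap1 an adjusted p of 0.31.

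Ttr encodes transthyretin, a carrier of thyroid hormone and of the retinol binding protein. It had 6.20, 5.54, 6.14 and 6.83 in pregnant replicates 1 to 4, against 6.19, 6.40, 6.28 and 6.38 in pseudopregnant replicates 1 to 4. The pregnant arrays spread to both sides of the pseudopregnant range, with an SD of 0.53 in pregnant against 0.099 in pseudopregnant uteri (n = 4 each). The difference was -0.14 ± 0.21 (SE, limma adjusted p = 0.72), and it turned to 0.08 without pregnant replicate 2.

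The transcription factors of gland identity differed little on average. Foxa2, which marks glandular epithelium in the mouse uterus, had 6.03, 5.78, 6.09 and 6.18 in pregnant replicates 1 to 4, against 6.15, 6.30, 5.94 and 6.34 in pseudopregnant replicates 1 to 4. The groups overlapped, and the lowest array was pregnant replicate 2. The difference was -0.16 ± 0.10 (SE, limma adjusted p = 0.37, exact permutation p = 0.26), and -0.08 without that array. Sox9, a transcription factor of gland and progenitor epithelium, had 6.85, 7.13, 7.04 and 7.02 in pregnant replicates 1 to 4, against 6.92, 6.78, 7.03 and 7.45 in pseudopregnant replicates 1 to 4. Its difference was -0.04 ± 0.13 (SE, limma adjusted p = 0.88), and -0.08 without pregnant replicate 2. It turned to 0.10 without pseudopregnant replicate 4, the highest array.

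**Figure D2:**
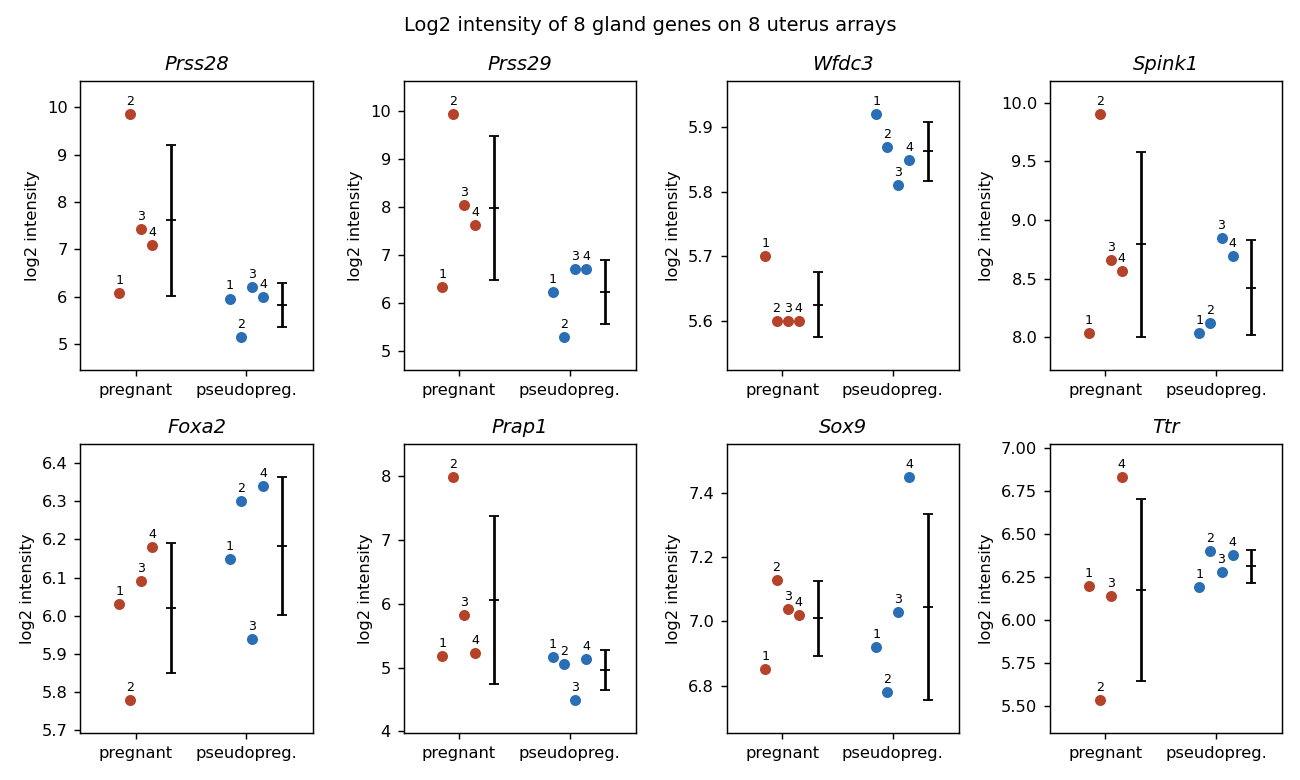
Log2 intensity (y axis) of the 8 gland genes on the 4 pregnant and 4 pseudopregnant arrays, with the replicate number at each point, and the mean ± SD as a bar beside each group. The y axes differ between genes and do not start at 0; the groups of Wfdc3 and of Prap1 do not overlap, and pregnant replicate 2 is the highest point for Prss28, Prss29, Spink1 and Prap1.

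Pregnant replicate 2 was the highest of the 8 arrays for Prss28, Prss29, Spink1 and Prap1 and the lowest for Foxa2 and Ttr. It exceeded the mean of the other pregnant arrays by 2.99 for Prss28, 2.59 for Prss29, 2.57 for Prap1 and 1.48 for Spink1. It lay below that mean by a difference of -0.85 for Ttr and -0.32 for Foxa2. For Sox9 (0.16) and Wfdc3 (-0.03) it lay near the other pregnant arrays. Prss28 and Prap1 had an r of 0.91 over the 8 arrays and 0.56 without pregnant replicate 2, and Prss28 and Spink1 had 0.88 and 0.53. For Prss28 and Foxa2, r was -0.74 and, without that array, -0.36. With Wfdc3 the r of Prss28 was -0.74 and, without that array, -0.84. With Ttr it was -0.65 and 0.16, and with Sox9 it was 0.29 and 0.24. Of the pairs of Prss28 with these genes and with Prss29, that with Prss29 moved least without this array.

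**Figure D3:**
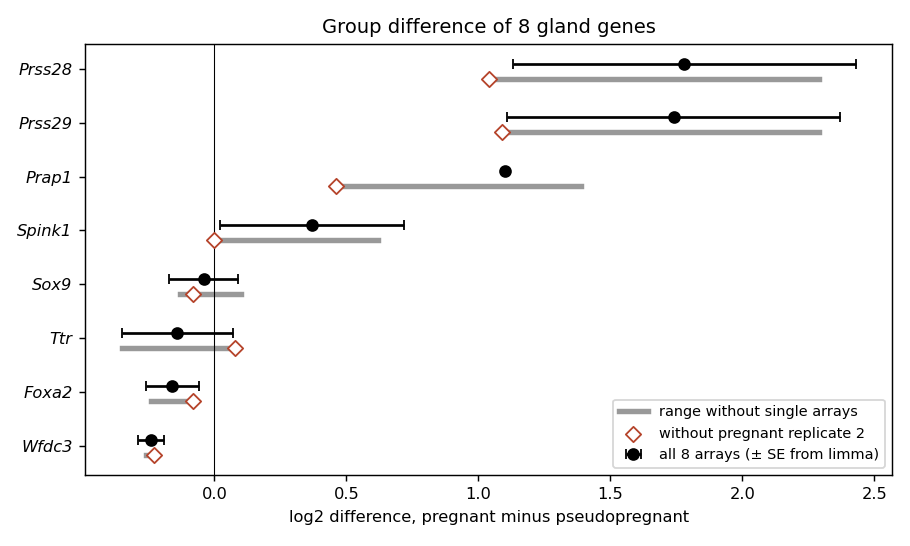
Log2 difference, pregnant minus pseudopregnant (x axis), of each gland gene over all 8 arrays with its SE from limma, which Prap1 lacks because it was not tested. Grey bars span the differences without single arrays and diamonds show those without pregnant replicate 2, which are 1.04 for Prss28, 1.09 for Prss29, 0.46 for Prap1 and 0.00 for Spink1.

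A list of 14 other genes with known activity in glands or epithelium of the uterus had 12 tested members, of which 0 passed in the higher and 1 in the lower direction in limma, with 1 higher and 2 lower before adjustment (p under 0.05). Their median difference was -0.15, against 0.002 over all tested probe sets. Their mean differed by -0.16, or by -0.05 without pregnant replicate 2. The gene counted as lower was Wfdc15b, another member of the whey acidic protein family. It had 5.07, 5.17, 5.15 and 4.91 in pregnant replicates 1 to 4, against 5.38, 5.47, 5.41 and 5.50 in pseudopregnant replicates 1 to 4. The groups did not overlap and the difference was -0.36 ± 0.066 (SE, limma adjusted p = 0.034), but every pregnant value lay below the limit. Wfdc15b was thus tested only through the pseudopregnant arrays, where it is higher, so its difference was bound to be negative and its size is not exact. Of genes chosen after their values were seen, Aldh1a1, which makes retinoic acid, differed by -0.25 ± 0.068 (SE, limma adjusted p = 0.079). Lgr5, a Wnt pathway receptor of gland progenitors, differed by 0.73 ± 0.32 (limma adjusted p = 0.19).

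The chemokine Cxcl15, a secreted product of the glands, was picked out after its values were seen. It had 7.30, 5.17, 7.66 and 7.64 in pregnant replicates 1 to 4, against 7.54, 8.07, 7.62 and 8.10 in pseudopregnant replicates 1 to 4, and was thus lowest on pregnant replicate 2, where the proteinases were highest. The difference was -0.89 ± 0.48 (SE, limma adjusted p = 0.29), and -0.30 without that array. Calb1, a calcium-binding protein also chosen after its values were seen, had 8.50, 6.82, 8.74 and 8.18 in pregnant replicates 1 to 4, against 9.67, 9.25, 8.94 and 8.11 in pseudopregnant replicates 1 to 4 (difference -0.94 ± 0.42, SE, limma adjusted p = 0.21, and -0.52 without pregnant replicate 2). Lif, the gland cytokine required for implantation, had 5.25, 4.59, 5.19 and 5.84 in pregnant replicates 1 to 4, against 5.55, 5.26, 5.52 and 5.49 in pseudopregnant replicates 1 to 4, and did not pass (difference -0.24 ± 0.21, SE, limma adjusted p = 0.52, and -0.03 without pregnant replicate 2).

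**Figure D4:**
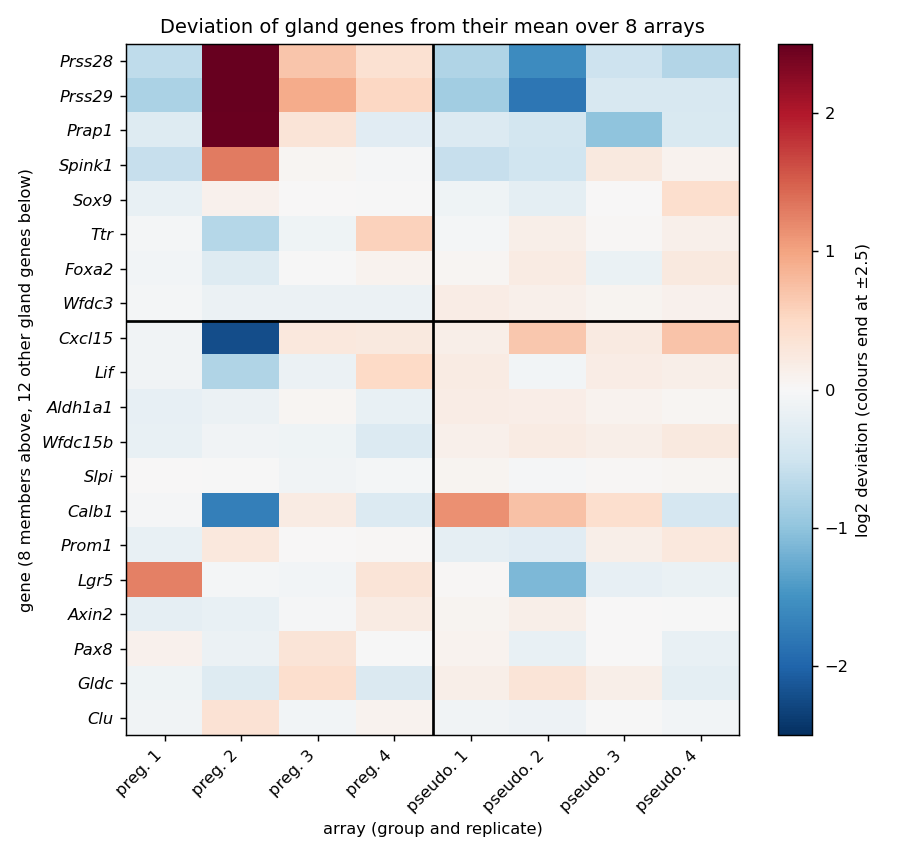
Deviation of each gene from its own mean over the 8 arrays, as colour in log2 units that ends at ±2.5, with the 8 gland genes above the line and the 12 other tested gland genes below it, and pregnant arrays left of pseudopregnant arrays. On pregnant replicate 2 the proteinases, Prap1 and Spink1 stand above their means while Cxcl15, Calb1, Ttr and Lif stand below theirs.

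Of 19 genes that act in gland formation, among them Wnt ligands and their effectors, Hox genes and steroid receptors, 18 were tested and 0 passed (limma; before adjustment 2 higher and 0 lower with p under 0.05). Their median difference was -0.03. The Notch effector Rbpj (0.27 ± 0.075, SE, limma adjusted p = 0.079), the ligand Wnt4 (0.22 ± 0.098, 0.21) and the transcription factor Sox17 (-0.36 ± 0.19, 0.29) had the smallest p. Without pregnant replicate 2, Wnt4 differed by 0.13 and Sox17 by -0.13. Foxa1, the close relative of Foxa2, lay below the limit on all 8 arrays.

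Other trypsin-like proteases were read beside the proteinases. Of 23 in the list, from which the cofactor F3 (tissue factor) was taken out after the data were seen, 22 were on the array, 13 were tested and 0 passed (limma; 0 at an unadjusted p under 0.05), with a median difference of -0.03. The membrane proteases St14 (0.25 ± 0.12, SE, limma adjusted p = 0.25) and Tmprss2 (0.12 ± 0.063, 0.29, and 0.08 without pregnant replicate 2) came closest to the threshold. The coding genes next to the pair on the chromosome, by their order in RefSeq's GRCm38.p6 annotation, are proteases as well. Prss34, before Prss28, lay below the limit on all 8 arrays with means of 4.39 in pregnant and 4.51 in pseudopregnant uteri. Tpsb2, a mast cell tryptase after Prss29, had means of 5.85 in pregnant and 5.90 in pseudopregnant uteri. The difference was -0.05 (limma adjusted p = 0.72), and -0.03 without pregnant replicate 2. Tpsg1, the next tryptase, lay above the limit on 2 arrays. Of 24 protease inhibitors outside the set, 21 were on the array and 11 were tested, and 0 passed (limma; before adjustment 0 higher and 1 lower with p under 0.05), with a median difference of 0.10. Wfdc15b, of the whey acidic protein family that this list also covers, was counted with the other gland genes instead. There it passed in the lower direction, though tested only through the pseudopregnant arrays. The mean of the 11 tested inhibitors in this list differed by 0.03, or by -0.04 without pregnant replicate 2. The Kunitz-type inhibitor Spint2 had the smallest p, with a difference of -0.18 ± 0.069 (SE, limma adjusted p = 0.16) and groups that did not overlap.

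Epithelial markers give a scale of epithelial RNA that the gland genes can be set against, not a measure of the amount of epithelium. Of 13 tested, 0 passed (limma; before adjustment 1 higher and 4 lower with p under 0.05), 11 had differences below 0, and their median was -0.22. Their mean per array lay between 7.09 and 7.44 in pregnant and between 7.34 and 7.76 in pseudopregnant uteri. It was lowest on pregnant replicate 2, and it differed by -0.20, or by -0.13 without that array. The claudin Cldn3 (-0.44 ± 0.15, SE, limma adjusted p = 0.12), Krt7 (0.27 ± 0.097, 0.14) and Krt19 (-0.46 ± 0.17, 0.15) had the smallest p. Relative to this mean, a comparison added after the data were seen, Prss28 differed by 1.99 (exact permutation p = 0.057) and Prss29 by 1.94 (exact permutation p = 0.086), and without pregnant replicate 2 by 1.16 and 1.22. Wfdc3 differed by -0.03 on that scale, and its groups overlapped (exact permutation p = 0.71, and -0.10 without pregnant replicate 2). Foxa2 differed by 0.04 (exact permutation p = 0.80), and Prap1 by 1.30 (exact permutation p = 0.029), or 0.58 without pregnant replicate 2. The Prap1 groups were barely apart, with pregnant replicate 1 at -2.21 and pseudopregnant replicate 4 at -2.22. Every pseudopregnant value of Prap1 lay below the limit. The share of probe sets without overlap on this scale was not computed. Spink1 differed by 0.57 (exact permutation p = 0.43), or 0.13 without pregnant replicate 2.

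Markers of other cells were read beside these values. Of 9 luminal epithelial markers, 0 passed (limma; before adjustment 1 higher and 3 lower with p under 0.05), with a median difference of -0.15. Their mean differed by -0.15, or by -0.08 without pregnant replicate 2. This list shares Calb1 with the list of other gland genes. The gap junction gene Gjb2 had 6.30, 6.52, 5.30 and 6.17 in pregnant replicates 1 to 4, against 5.31, 4.62, 5.11 and 4.48 in pseudopregnant replicates 1 to 4, a difference of 1.19 ± 0.26 (SE, limma adjusted p = 0.051). Every pseudopregnant value of Gjb2 lay below the limit, so it was tested only through the pregnant arrays and its size is not exact. The transcription factor Msx1 (-0.61 ± 0.19, limma adjusted p = 0.10) and the mucin Muc1 (-0.34 ± 0.12, 0.12, and -0.21 without pregnant replicate 2) followed. None of the 7 endothelial markers passed (before adjustment 0 higher and 3 lower with p under 0.05), and all 7 had differences below 0, with a median of -0.13. The receptor Tie1 (-0.30 ± 0.086, limma adjusted p = 0.083) had the smallest p. Smooth muscle had 0 of 8 passing (before adjustment 0 higher and 1 lower) with a median of 0.05, led by Myh11 (-0.22 ± 0.057, limma adjusted p = 0.070). Stroma had 0 of 8 passing (1 higher and 0 lower) with a median of 0.09, led by Pdgfrb (0.25 ± 0.084, limma adjusted p = 0.12). Of 8 macrophage markers 6 rose and 0 fell, with a mean per array between 7.17 and 7.41 in pregnant and between 6.89 and 6.95 in pseudopregnant uteri. These were the complement genes C1qb (0.56 ± 0.068, SE, limma adjusted p = 0.012) and C1qc (0.45 ± 0.084, 0.036) and the integrin Itgam (0.35 ± 0.054, 0.024). Also among them were Adgre1 (0.62 ± 0.099, 0.025), the mannose receptor Mrc1 (0.43 ± 0.085, 0.040) and Cd68 (0.48 ± 0.099, 0.045). The remaining markers, named after their values were seen, did not pass. They were the complement gene C1qa (0.08 ± 0.067, SE, limma adjusted p = 0.46) and Csf1r (0.20 ± 0.086, 0.19, and 0.11 without pregnant replicate 2). Of 8 mast cell markers, 4 were tested and 0 passed (limma; 0 at an unadjusted p under 0.05), while Cma1, Ms4a2 and Fcer1a lay below the limit on every array. Of the pancreas and liver markers on the array, which bear on Spink1 and Ttr, 0 of the 5 tested passed (limma; 0 at an unadjusted p under 0.05). Below the limit on all 8 arrays lay 4 of 6 liver markers, among them the plasma albumin Alb. So did 3 of 6 pancreas markers, among them the enzyme Cpa1. Apoa1 and Apoa2 of the liver list and Cela2a and Ctrb1 of the pancreas list lay above it on all 8, and Cela1 on 6. Of the blastocyst markers, Eomes (0.72 ± 0.17, SE, limma adjusted p = 0.057) and Gata6 (-0.17 ± 0.071, 0.18) were tested. Gata6 lay above the limit on all 8 arrays, also the pseudopregnant ones, so its signal was not confined to the pregnant group. Every pseudopregnant value of Eomes lay below the limit, so it was tested only through the pregnant arrays and its size is not exact. Whether the Eomes signal came from embryos or from cells of the uterus was not tested. The markers Cdx2, Pou5f1 and Nanog lay below the limit on every array. The part of these cells in the gland results was not tested.

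The genes most like Prss28 over the 8 arrays, by Pearson's r, were Prss29 (0.987), the complement regulator Cd55 (0.978), the guanylin family peptide Guca2b (0.972), Depp1 (0.970) and the endoplasmic reticulum protein Erp44 (0.970). Guca2b had 6.98, 9.83, 7.64 and 7.07 in pregnant replicates 1 to 4, against 6.44, 6.10, 6.74 and 7.05 in pseudopregnant replicates 1 to 4, and did not pass (difference 1.30, limma adjusted p = 0.18). Without pregnant replicate 2 the differences were 0.65 for Guca2b, against 1.30 with it, 0.25 for Cd55, against 0.42, 0.40 for Depp1, against 0.75, and 0.10 for Erp44, against 0.16. Pregnant replicate 2 was the highest array for each of these 5 genes. With deviations from the group means, Prss29 (0.976) again came first, followed by Tmem97 (0.974), Plp2 (0.965), Troap (0.962) and Cd55 (0.961). Tmem97, a sterol-regulated membrane protein, rose by 0.65 (limma adjusted p = 0.040). The genes most like Foxa2 were Stx6 (0.984), Snap47 (0.970), Plpp7 (0.967), Ppp4r1l-ps (0.962) and Tmem131 (0.961), with differences between -0.17 and -0.06, or between -0.10 and -0.03 without pregnant replicate 2.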

How the data were processed

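The intensities deposited by the authors are linear-scale values per probe set that went through RMA, per the submitters' processing notes; version, settings and annotation build were not given in the sources used here. Values reached 8113 and array medians lay between 55.2 and 56.3. From them log2 intensity was computed here. Of 35556 probe sets, 6617 whose identifiers precede the first one with a gene were inferred to be array controls and dropped. Of the remaining 28939, 21789 had 1 symbol, 1621 several and 5529 none, and only the first kind was named. The 2 groups were fitted in limma 3.58.1 under R 4.3.3 (lmFit, eBayes), adjusting by Benjamini-Hochberg over the 17491 probe sets above the intensity filter. Single genes also had exact permutation tests, all two-sided. The number of arrays, 4 a group, limits precision. The labels give no batch.

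The 8 genes, the lists (177 genes, also with markers of luminal epithelium and endothelium) and the tests were chosen with earlier results of these data known. Named were all 8 genes, each listed gene past the threshold or else at most 3 per list by smallest p, Lif, and the 5 genes most like Prss28 or Foxa2; others are said to be chosen later. The code was tested on simulated data with known changes. Same-numbered replicates deviated with correlations of 0.24, 0.02, -0.10 and 0.04 for numbers 1 to 4. The main fit did not pair them, though these correlations cannot exclude a pairing. Promoter windows came from RefSeq's GRCm38.p6 table and were aligned with Biopython 1.88. Plots used matplotlib 3.10.9 (Python 3.11.15).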

Additional observations from a re-analysis of the deposited data

Results flagged for a closer look

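Values far from the others of their group were sought in 48 groups of 4 arrays, of which chance picks about 1 in 20. For Wfdc3, pregnant replicate 1 (5.70) lay above the other pregnant arrays, all at 5.60, a gap of small size. For Prap1, pseudopregnant replicate 3 (4.50) lay below the other pseudopregnant arrays (5.06 to 5.16), all under the intensity limit. Pregnant replicate 2 lay below the other pregnant arrays in the mean of the 12 other gland genes, with 6.26 against 6.69 to 6.74. It also lay below them in the mean of 9 luminal epithelial markers, with 6.58 against 6.81 to 6.84. Calb1, with 6.82 on pregnant replicate 2 against 8.50, 8.74 and 8.18 on pregnant replicates 1, 3 and 4, is in both lists. These means are thus not separate results, and they were not computed without Calb1. The cause of these gaps was not tested.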

How the results depend on the processing

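The numbers of calls moved with most settings. The count of 319 probe sets was 174 with the replicate number as a block, 54 without the intensity filter, 710 with a trended and robust prior, and between 40 and 235 without single arrays (101 without pregnant replicate 2; 40 without pseudopregnant replicate 1 or 3). With the array control probe sets kept, a setting added after the data were seen, it was 70. The number of gland genes called, 1 with all arrays (Wfdc3), was 0 under the block, without the filter, with the stricter filter, median centring, cyclic loess, array weights, the trended prior, averaged probe sets, the second Wfdc3 probe set or the controls kept, and 0 to 0 without single arrays. Wfdc3 kept its call with a repeated quantile normalization (adjusted p = 0.047) and lost it in the other 17 of 18 settings that tested it, with an adjusted p up to 0.12 (limma). The stricter filter left 3 of the 8 genes. Centring each array on its epithelial markers, also added later, called 3 of the 8 genes (Prss28, Prss29 and Spink1) and 1458 probe sets. It shifted the median difference by 0.206 and gave limma an unbounded prior, so its p-values were not used. In that setting the differences of Foxa2 (0.04), Sox9 (0.17) and Ttr (0.07) turned positive. Without pregnant replicate 2 they were 0.04, 0.05 and 0.20. Without single arrays Sox9 lay between -0.13 and 0.10 and Ttr between -0.35 and 0.08. Sox9 turned without pregnant replicate 1 (0.02) or pseudopregnant replicate 4 (0.10), and Ttr without pregnant replicate 2 (0.08). Prss28 stayed between 1.04 and 2.29 (limma adjusted p between 0.097 and 0.25), Prss29 between 1.09 and 2.29 (0.081 to 0.26), and Prap1 between 0.46 and 1.39. The causes were not tested. The labels do not say whether same-numbered samples belong together. The correlations of their deviations, 0.24, 0.02, -0.10 and 0.04, cannot exclude it. With the replicate number as a block, the limma adjusted p of Wfdc3 was 0.073. Depth in arrays is signal over background: Wfdc3, Wfdc15b, Lif and Prap1 lie near or under the limit. On pseudopregnant replicate 2, Prss28 (5.15) lay below the limit of 5.24 and Prss29 (5.29) close above it. On pregnant replicate 2, Cxcl15 (5.17) lay below the limit of 5.23.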
